A study of Sus scrofa with 12 samples.

Results

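The type I interferon response genes are 41 genes that animal cells switch on when they sense type I interferon. They were taken by symbol from the gene annotation of a pig array, and each gene was followed through the brightest of its probe sets, judged by the mean over all arrays. Of the 41 genes, 37 had at least 1 probe set and 36 lay above the filter on dim probe sets, out of 12285 genes kept on the array. SAMD9, IFI44L, HERC5 and IRF7 matched no annotated probe set. PARP9 had 1 probe set, which ranged from 2.20 to 3.17 on the log2 scale and was left out as dim, since the filter removed probe sets with a mean below 2.67.

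The samples were pieces of ileal mucosa from 12 pigs (Sus scrofa) aged 140 days. The high and the low feed efficiency group held 6 pigs each, and each group had equal numbers of males (3) and females (3). Feed efficiency is the growth an animal gains from the feed it eats, and the labels name no other treatment, breed or diet. Each array carried RNA of a single pig, hybridized to a 1-colour Affymetrix array of the Snowball design. Identifiers put the pigs in 2 ranges: 6 males and 2 females carried identifiers 301 to 310, and the other 4, all females, carried identifiers 317 to 324, so sex and identifier range overlapped in part. High feed efficiency pig 1 had the array least like the rest. Its correlations with the other arrays had a median of 0.90, against 0.93 to 0.96 for the other 11. The ileal bile acid genes FABP6 (mean 12.65) and SLC10A2 (10.18) and the epithelial gene VIL1 (10.79) were all far above the filter on these arrays.

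Type I interferons are secreted proteins that bind the receptor IFNAR1/IFNAR2 on nearly every cell. The kinases JAK1 and TYK2 then phosphorylate STAT2, which acts with IRF9 in the nucleus as part of the factor ISGF3. ISGF3 turns on a broad set of genes that block virus entry, degrade viral RNA, halt translation and sense more viral nucleic acid. In the gut, epithelial cells and immune cells of the mucosa keep such genes at a basal level that microbes and viruses help to shape. The roles given below are known mainly from human and mouse cells.

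The response genes varied widely from pig to pig. Their SD over the 12 pigs had a median of 0.54 on the log2 scale, with a range of 0.18 for TRIM25 to 1.11 for OASL, against a median of 0.30 over all 12285 genes. Of the 36 genes, 32 had an SD above that median, and 15 lay above the 90th percentile of all genes, 0.60. Most of this variation was shared. Low feed efficiency pig 4, a female, had the highest value of all pigs in 30 of the 36 genes, while she was highest in 14.6% of all genes.

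**Figure D1:**
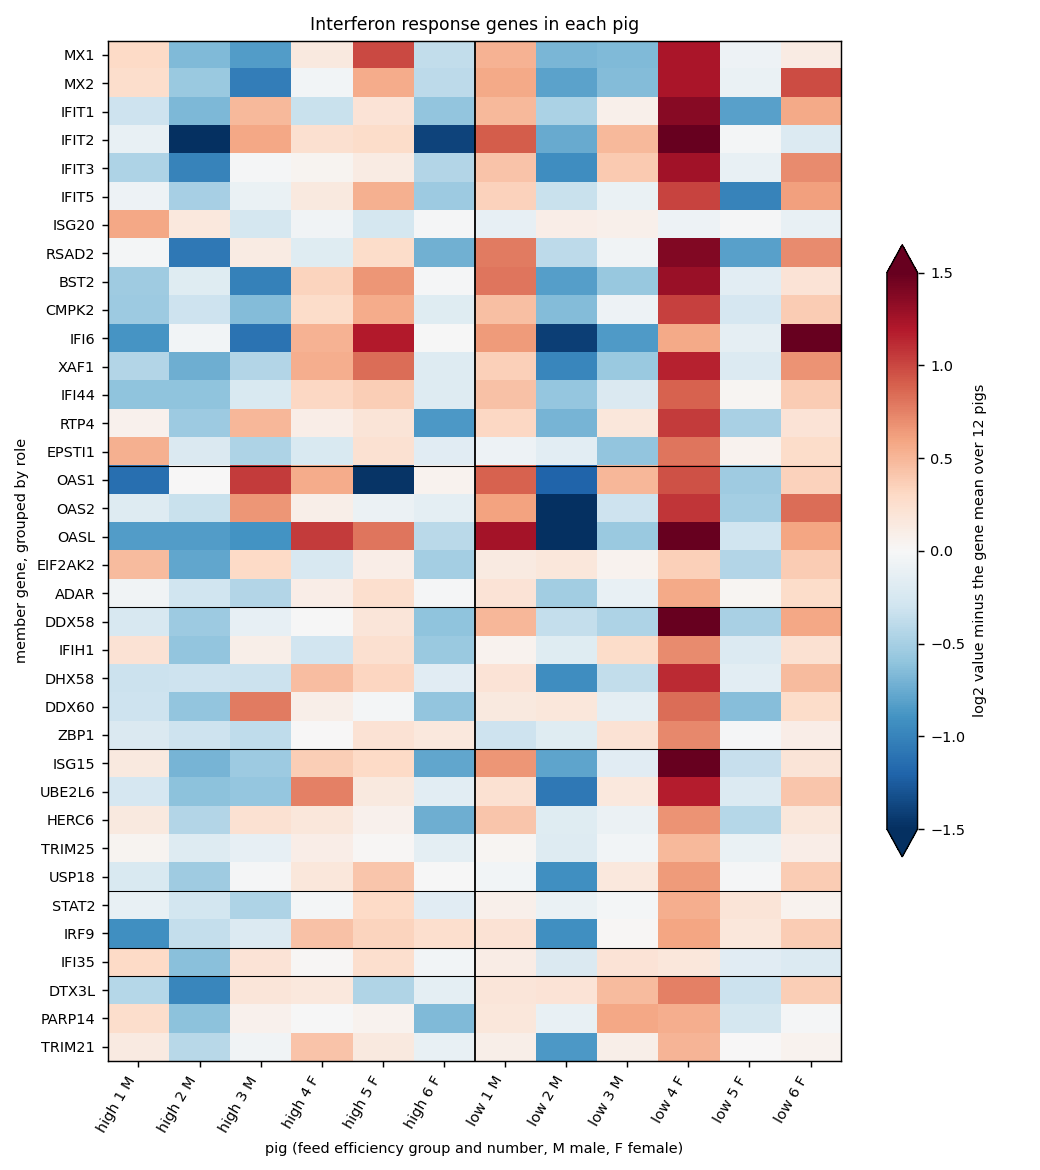
Heat map of the 36 genes (one line each, grouped by role with black lines between roles) in the 12 pigs (columns, M male, F female), coloured by the log2 value minus the gene's mean over the 12 pigs. The column of low feed efficiency pig 4 is red in nearly every gene, and the columns of low feed efficiency pig 2 and high feed efficiency pig 2 are mostly blue.

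Averaged over the 36 genes, each centred on its own mean, low feed efficiency pig 4 lay at 0.93. Low feed efficiency pigs 6 and 1 followed at 0.36 and 0.35, and high feed efficiency pigs 5 and 4 at 0.25 and 0.17. The lowest means belonged to 2 males, low feed efficiency pig 2 at -0.59 and high feed efficiency pig 2 at -0.52. These held the lowest value in 11 and 9 of the 36 genes. Both ends of the order were thus pigs of low feed efficiency. The mean was -0.12 ± 0.29 over the 6 high pigs and 0.12 ± 0.54 over the 6 low pigs (SD), so the groups overlapped over most of their range. In bulk tissue, fewer cells that express a gene and less RNA per cell cannot be told apart.

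The series compares the ileal transcripts of both feed efficiency groups. In the fit with terms for group and sex, no response gene passed the threshold, and most had a somewhat lower estimate in high feed efficiency. With limma, 0 of the 36 genes passed an adjusted p of 0.05, as did 0 of all 33405 probe sets tested (0%), and the adjusted p was at least 0.999 for each gene. The estimate lay below 0 in 33 of the 36 genes, against 49.4% of all probe sets, and the median difference, high minus low, was -0.22 against 0.00 over all. At an unadjusted p under 0.05, 1 of the 36 genes was lower in high feed efficiency, against 1.42% of all probe sets, and 0 were higher, against 1.75%. For no gene did the 6 high pigs lie wholly below or above the 6 low pigs, which 0.0449% and 0.0479% of all probe sets did. The genes vary together from pig to pig, so the 33 shared signs are not 33 separate observations. Without low feed efficiency pig 4, the count below 0 was 27 with a median of -0.10, and 0 genes had an unadjusted p under 0.05 in that direction. Of the single estimates, 22 then moved by over 1.5 times and a further 6 turned sign. Without high feed efficiency pig 1, the array least like the rest, the count was 36 and the median -0.25.

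**Figure D2:**
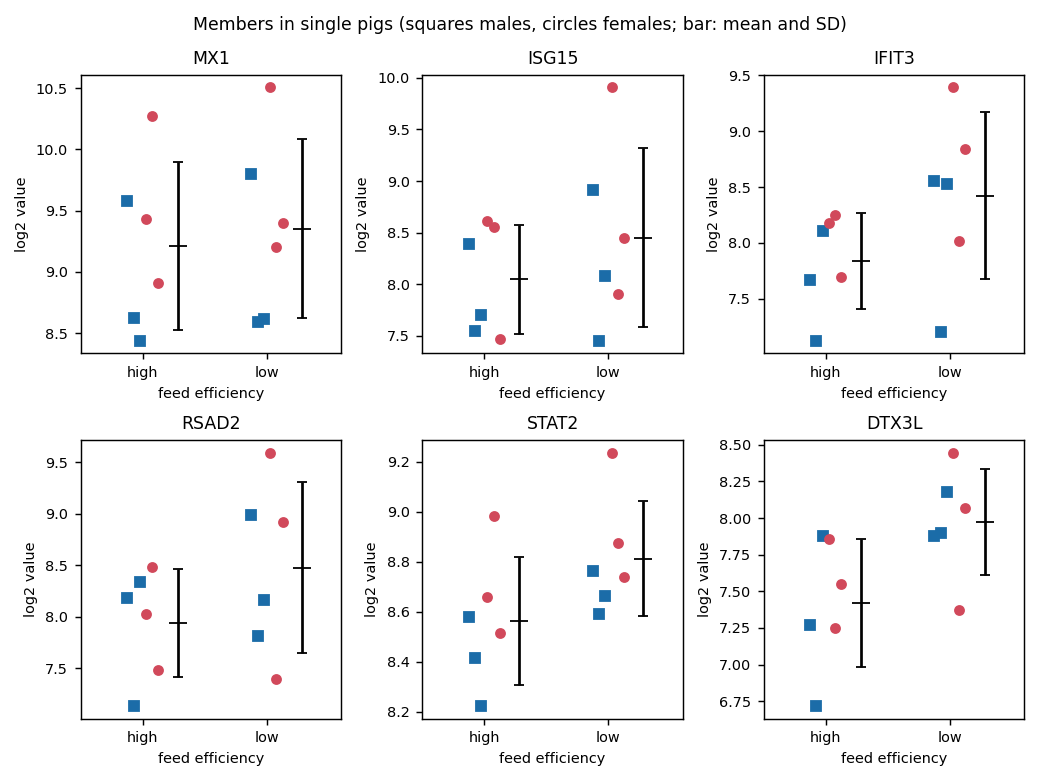
Log2 values of 6 response genes in single pigs of the high and low feed efficiency groups (squares males, circles females), with the mean and SD of each group as a bar. In every panel the groups overlap, and the highest circle of the low group is pig 4.

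Among the antiviral effectors, the 15 genes measured had a median difference of -0.25, and 14 of them lay below 0. MX1 encodes a GTPase that traps incoming viral particles. It ran from 8.44 to 10.27 in high feed efficiency, with a median of 9.17, and from 8.59 to 10.51 in low, with a median of 9.30. The difference of -0.14 ± 0.33 (SE, n = 6 per group) was smaller than the spread within either group. The other GTPase, MX2, differed by -0.41 ± 0.33.

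The IFIT proteins bind viral RNA and hold back its translation. IFIT3 had the lowest p of the effectors and spanned 7.13 to 8.25 in the high group, with a median of 7.90, against 7.20 to 9.39 and a median of 8.54 in the low group. All 6 high pigs lay below the median of the low group, yet low feed efficiency pig 2, at 7.20, was lower than 5 of them. IFIT2 read 5.08 to 7.28 (median 6.76) in high and 5.95 to 8.33 (median 6.93) in low feed efficiency, a difference of -0.68 ± 0.47. High feed efficiency pigs 2 and 6, at 5.08 and 5.31, made up its low end. IFIT1 took values of 6.85 to 8.01 in high, with a median of 7.20, and 6.71 to 8.90 in low, with a median of 7.80. Its lowest and its highest pig were both of low feed efficiency, and the difference was -0.41 ± 0.34. IFIT5 differed by -0.18 ± 0.31. Leaving out low feed efficiency pig 4 brought IFIT1 to -0.16 and IFIT5 to -0.0019.

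RSAD2, or viperin, makes a nucleotide that stops viral polymerases. It lay between 7.14 and 8.48 in high feed efficiency (median 8.11) and between 7.39 and 9.59 in low (median 8.54), a difference of -0.54 ± 0.37. As with IFIT3, all 6 high pigs lay below the low group's median, while the ranges overlapped over more than 1 log2 unit. CMPK2, a nucleotide kinase encoded next to RSAD2, differed by -0.29 ± 0.24. BST2, or tetherin, holds budding virus at the cell surface. Its values were 6.83 to 8.51 in high (median 7.74) and 7.01 to 9.13 in low feed efficiency (median 7.86), and the difference of -0.25 ± 0.31 was within the spread. It was -0.012 once low feed efficiency pig 1 was left out.

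IFI44, a cytoplasmic protein of the response, ran from 7.08 to 8.06 in high (median 7.47) and from 7.10 to 8.57 in low feed efficiency (median 7.89). Its difference was -0.31 ± 0.20. The remaining effectors had smaller differences than their SE. XAF1, which promotes cell death, stood at -0.14 ± 0.27, the mitochondrial protein IFI6 at -0.12 ± 0.38, RTP4 at -0.18 ± 0.31 and EPSTI1 at -0.10 ± 0.21. The exonuclease gene ISG20 was the only effector with an estimate above 0, at 0.05 ± 0.14, and it had the lowest SD after TRIM25, 0.22.

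The genes whose proteins act on double-stranded RNA had differences of -0.37 to -0.00, all 5 at or below 0. OAS1 makes the second messenger that activates RNase L. It spread from 8.29 to 10.82 in high feed efficiency, with a median of 9.79, and from 8.56 to 10.71 in low, with a median of 10.18. Both groups covered nearly the same wide range, and the difference was -0.31 ± 0.49. OASL and OAS2, of the same family, stood at -0.37 ± 0.49 and -0.00 ± 0.40. Single pigs decided the value of OASL, which was -0.00036 without low feed efficiency pig 1 and -0.68 without low feed efficiency pig 2. EIF2AK2 encodes PKR, the kinase that shuts down translation. It read 6.07 to 7.33 in high (median 6.78) and 6.40 to 7.22 in low (median 7.0), so the high group enclosed the low one, with a difference of -0.22 ± 0.22. ADAR, which edits adenosine in RNA, differed by -0.15 ± 0.15.

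By their representative probe sets, all 5 sensors of nucleic acid had estimates below 0, with a median of -0.22. DDX58 encodes RIG-I, which binds viral RNA ends. It lay at 7.25 to 8.03 in high feed efficiency (median 7.68) and at 7.37 to 9.42 in low (median 7.93). Low feed efficiency pig 4 stood at 9.42, and without this pig the difference shrank from -0.44 ± 0.31 to -0.19. IFIH1 encodes MDA5, which binds long viral RNA. It ran from 5.69 to 6.53 in high (median 6.19) and from 6.08 to 6.99 in low feed efficiency (median 6.43), a difference of -0.29 ± 0.21. DHX58 (LGP2), their regulator, differed by -0.11 ± 0.23, DDX60 by -0.22 ± 0.28 and the sensor of left-handed nucleic acid ZBP1 by -0.17 ± 0.14.

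ISG15 is a ubiquitin-like protein that is attached to other proteins. In high feed efficiency it ranged from 7.47 to 8.62 with a median of 8.05, and in low from 7.46 to 9.91 with a median of 8.27. The groups shared their lower end and differed at the top, where pig 4 of the low group again stood alone. The difference was -0.41 ± 0.36 with all pigs and -0.13 with that pig left out. The enzyme UBE2L6, which conjugates ISG15, stood at -0.23 ± 0.28, the ligase genes HERC6 and TRIM25 at -0.19 ± 0.23 and -0.10 ± 0.12. USP18 removes ISG15 and blocks the receptor. It ran from 6.17 to 7.12 in high (median 6.68) and from 5.78 to 7.34 in low feed efficiency (median 6.77), and differed by -0.07 ± 0.19.

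Of the factor ISGF3, STAT2 and IRF9 are on the list. STAT2 read 8.22 to 8.98 in high feed efficiency, with a median of 8.55, and 8.59 to 9.24 in low, with a median of 8.75. As many as 5 of the 6 high pigs lay below the median of the low group, and the difference of -0.25 ± 0.13 had an unadjusted limma p of 0.0713. IRF9 took values of 7.57 to 8.93 in high (median 8.51) and 7.57 to 9.09 in low (median 8.68), with 1 male at the low end of each group and a difference of -0.15 ± 0.20. IFI35, which modulates signalling by the sensors, stood at 0.04 ± 0.17.

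DTX3L, a ubiquitin ligase that works with PARP9 on histones and viral proteins, had the lowest p of the 36 genes. It ran from 6.72 to 7.88 in high feed efficiency, with a median of 7.41, and from 7.37 to 8.45 in low, with a median of 7.98. All 6 high pigs lay below the low group's median, but low feed efficiency pig 5, at 7.37, was lower than 3 of them, and the unadjusted limma p was 0.0286. PARP14, an ADP-ribosyl transferase, read 7.45 to 8.38 in high (median 8.14) and 7.85 to 8.70 in low (median 8.19), a difference of -0.30 ± 0.21. TRIM21, an antibody receptor and ubiquitin ligase, stood at 0.04 ± 0.19.

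**Figure D3:**
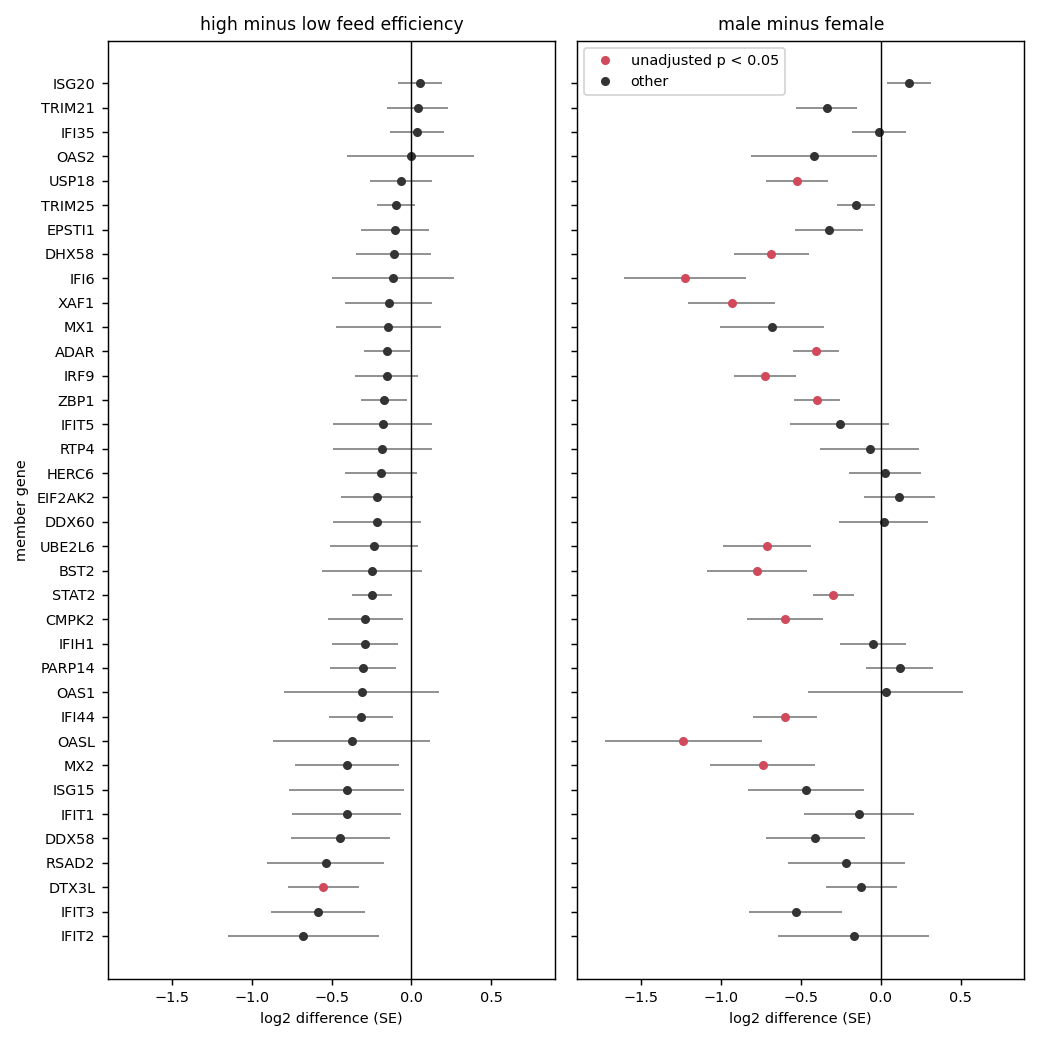
Estimated log2 difference of each of the 36 genes (points) with its SE (lines), high minus low feed efficiency on the left and male minus female on the right, in the same order of genes. Points in red had an unadjusted p under 0.05, 1 gene (DTX3L) on the left and 14 on the right, and none passed after adjustment.

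Most estimates lay below 0 in each sex and each identifier range, in subsets of 2 to 4 pigs per group. In the 3 males of each group 29 of the 36 estimates lay below 0, with a median of -0.15, and in the 3 females 35 did, with a median of -0.27. By identifier, the 8 pigs 301 to 310 gave 33 genes below 0 with a median of -0.31. The 4 pigs 317 to 324 gave 26 with a median of -0.11. Of all 33405 probe sets, 16643 lay below 0 in males alone and 16399 in females alone. Low feed efficiency pig 4, at 0.93 over the 36 genes, is among the females and among pigs 301 to 310. The other low feed efficiency females lay at 0.36 and -0.25, and the high ones at 0.25, 0.17 and -0.32. The genes vary together and the subsets share pigs, so these counts are not separate observations. The difference of the feed efficiency effect between the sexes was called for 0 of the 36 genes and 0 of all probe sets (0%) by limma. At an unadjusted p under 0.05 it was lower in 0 genes, against 1.2% of all probe sets, and higher in 0, against 1.56%.

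Females had higher mean values than males in most response genes. The male minus female estimate was below 0 in 30 of the 36 genes, against 51% of all probe sets, with a median of -0.37 against -0.01. No gene passed an adjusted p of 0.05 with limma, which 11 probe sets of the whole array did (0.0329%). At an unadjusted p under 0.05, 14 of the 36 were lower in males, against 9.17% of all probe sets, and 0 were higher, against 9.79%. For none of the 36 were the 6 males wholly below or above the 6 females, as 0.934% and 1.25% of all probe sets were. As for feed efficiency, the genes vary together from pig to pig, so the 30 signs and the 14 genes are not separate observations. Without low feed efficiency pig 4, a female, the estimate was below 0 in 24 genes with a median of -0.21, and 8 had an unadjusted p under 0.05. Without high feed efficiency pig 1, a male, these values were 31, -0.42 and 16. The 14 genes with all pigs included the effectors MX2, BST2, CMPK2, IFI6, XAF1 and IFI44, and OASL and ADAR of the double-stranded RNA group. The others were the sensors DHX58 and ZBP1, UBE2L6 and USP18 of the ISG15 system, and STAT2 and IRF9.

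IRF9 showed the sex difference most clearly. Its values were 7.57 to 8.70 in males, with a median of 8.21, and 8.66 to 9.09 in females, with a median of 8.85. Only 1 male, low feed efficiency pig 1 at 8.70, reached above the lowest female, and the difference was -0.72 ± 0.20 (limma unadjusted p 0.00311, adjusted p 0.112). XAF1 ran from 6.18 to 7.51 in males (median 6.66) and from 6.95 to 8.31 in females (median 7.77), a difference of -0.93 ± 0.27. IFI6 spanned 7.60 to 9.65 in males and 8.88 to 10.56 in females, with medians of 8.14 and 9.55 and a difference of -1.22 ± 0.38. All 6 males lay below the female median for XAF1, and 5 of 6 did for IFI6. OASL, the most variable of the 36 genes, stood at 4.81 to 7.89 in males and 6.24 to 8.60 in females, and differed by -1.24 ± 0.49.

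Some response genes had sex estimates close to 0, with errors wide enough to hold a sizeable difference either way. DDX60 differed by 0.02 ± 0.28, HERC6 by 0.03 ± 0.23, OAS1 by 0.03 ± 0.49 and IFI35 by -0.01 ± 0.17. For OAS1 and IFI35 another probe set gave a clearly lower value in males, given with the further probe sets. EIF2AK2, PARP14 and ISG20 were the other genes with estimates above 0, at 0.12 ± 0.22, 0.12 ± 0.21 and 0.18 ± 0.14. Within the high feed efficiency group 25 of 36 estimates were below 0 (median -0.27), and within the low group 31 (median -0.42).

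The sex difference moved with the identifier range. Within pigs 301 to 310, which hold 6 males and 2 females, 35 of the 36 genes were lower in males, with a median of -0.71. The mean of the 2 females there was higher than that of the 4 females of pigs 317 to 324 in 35 of the 36 genes, with a median difference of 0.54. These 2 females were unlike each other. Averaged over the genes, low feed efficiency pig 4 lay at 0.93 and high feed efficiency pig 4 at 0.17, below low feed efficiency pig 6 (0.36) and high feed efficiency pig 5 (0.25) of the second range. As group means, the 2 females of the first range lay at 0.55 ± 0.53, the 4 of the second at 0.01 ± 0.34 and the 6 males at -0.19 ± 0.34 (SD). With the range as a further term, the 11 calls of the sex comparison over all probe sets became 6, none of them a response gene. Among the response genes, 35 of 36 sex estimates were then below 0, with a median of -0.71, and 18 had an unadjusted p under 0.05. Of all 33405 probe sets, 17113 were then below 0 and 3059 were lower in males at that p. No male came from the second range, so males could not be compared across ranges. For the same reason the estimates with the range term are those within pigs 301 to 310. They rest on the same 2 females and are no separate check.

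The genes followed one another across the 12 pigs far more closely than genes in general. Over the 630 pairs of response genes, Pearson's r had a median of 0.63, while over all pairs of the 12285 genes it was 0.00. It exceeded 0.7 in 248 pairs, or 39.4%, against 3.74% of all pairs. After removing the group and sex means the median was 0.62. These values describe arrays that share pigs and pairs that share genes, so no p is given. A first principal component of the standardized 36 genes held 62.6% of their variance and the second 13.5%. Without low feed efficiency pig 4 the median r was 0.49, and without high feed efficiency pig 1 it was 0.66.

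**Figure D4:**
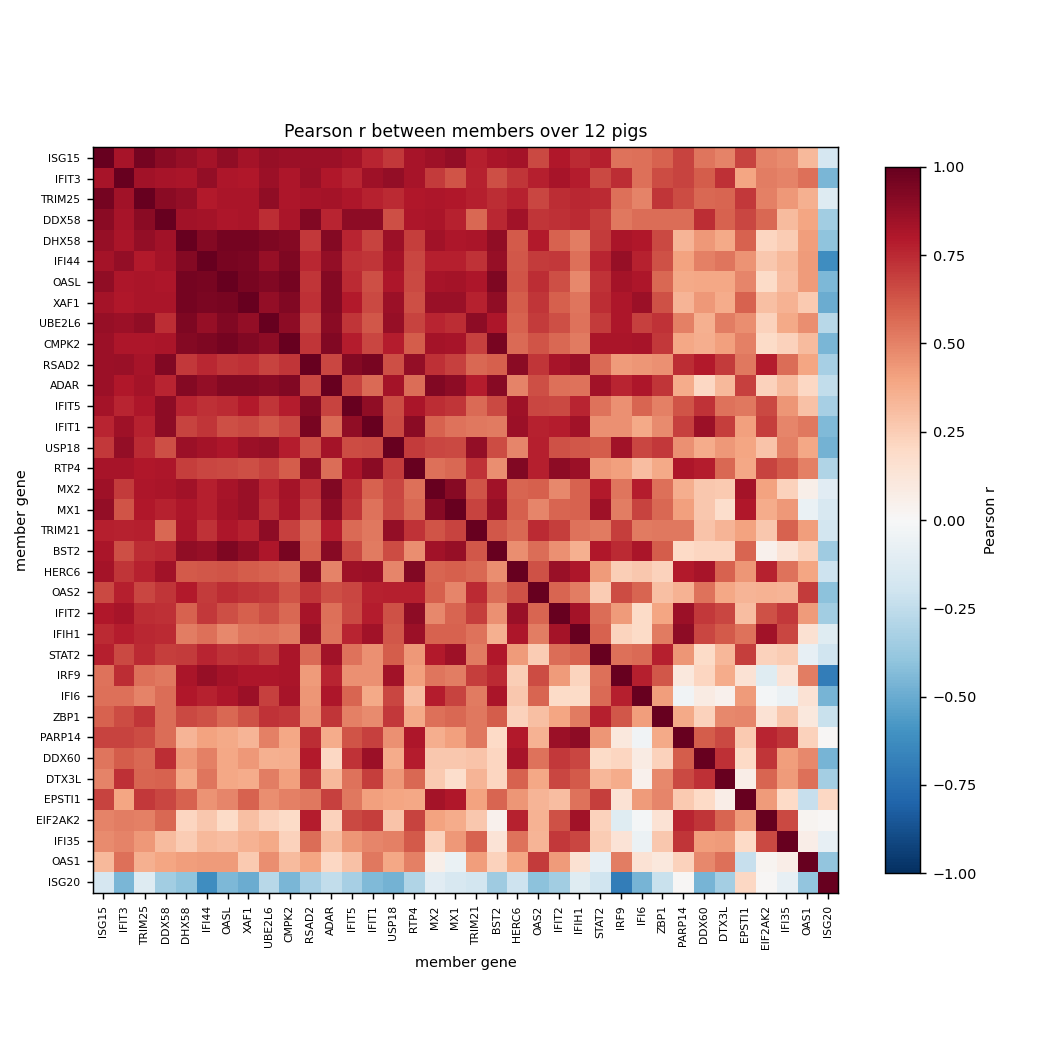
Pearson correlation over the 12 pigs between each pair of the 36 genes, from -1 in blue to 1 in red. On both axes the genes are ordered by their r with the mean of the other genes. Most of the field is red, while ISG20 in the last line is blue against nearly all others and OAS1 beside it is pale.

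ISG15 was the gene closest to the rest, with an r of 0.94 with the mean of the other 35 genes. IFIT3, TRIM25, DDX58 and DHX58 followed at 0.93, 0.93, 0.92 and 0.92. At the other end, ISG20 had an r of -0.41 with the others, OAS1 0.40, IFI35 0.47 and EIF2AK2 0.49. ISG20 was highest in high feed efficiency pig 1, at 5.21, and lay between 4.36 and 4.79 in the other 11 pigs.

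MX1, a widely used marker of the response, served as the reference for single relations, 35 in all. Pearson's r with MX1 ran from -0.16 (ISG20) to 0.91 (MX2), with a median of 0.68, and Spearman's rho had a median of 0.59. The permutation p was under 0.05 with a positive r for 23 of the 35 genes, against 4.71% of all 12284 other genes kept. By Spearman's rho it was so for 19 of the 35, against 5.39%. With a negative sign it was under 0.05 for 0 of the 35 by either measure, against 2.76% by Pearson's r and 3.09% by Spearman's rho. Low feed efficiency pig 4 (10.51) and high feed efficiency pig 5 (10.27) lay farthest from the MX1 median. Without them the median r was 0.46 and 7 genes kept an r over 0.7, where 15 had one before. Among 12249 genes that are not on the list, only 135 had an r with MX1 over 0.7.

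MX2 followed MX1 most closely, with r = 0.91 (permutation p = 0.00011), rho = 0.92 (permutation p = 9e-05) and r = 0.89 without the 2 pigs. ISG15, ADAR and BST2 had an r of 0.88, 0.89 and 0.87, and 0.85, 0.83 and 0.76 without the 2 pigs. For others r was far lower without those pigs. The r of ZBP1 went from 0.57 to 0.02, of IFIT1 from 0.54 to 0.18 and of IFIH1 from 0.59 to 0.25. OAS1 (r = -0.06, by its representative probe set), DTX3L (0.17) and DDX60 (0.27) had a low r with MX1 in either set of pigs. Another OAS1 probe set was closer to the other genes, as given with the further probe sets, and its r with MX1 is not given. Within the 6 females the r of DDX60 was 0.76, of DTX3L 0.35 and of OAS1 -0.04. Within the 6 males these were -0.20, -0.08 and -0.08.

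In a limma fit with terms for group, sex and MX1, the slope on MX1 was called for 0 of the 35 genes at an adjusted p of 0.05, against 2 of 33404 other probe sets (0.00599%), both without a gene symbol. At an unadjusted p under 0.05, 20 of the 35 had a positive slope, against 1.97% of all probe sets, and 0 a negative one, against 1.57%. Without low feed efficiency pig 4 the 20 became 13. MX2 alone was called (limma adjusted p = 0.0488) once low feed efficiency pig 6 was left out. Within the sexes the median r with MX1 was 0.52 in the 6 males and 0.80 in the 6 females, who include both pigs of highest MX1. Within pigs 301 to 310 it was 0.72.

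Several of the genes lie next to each other in the pig genome, by the order of genes in the RefSeq table of Sscrofa11.1, which listed 39 of the 41 by symbol. MX1 and MX2 are direct neighbours, as are IFIT1 and IFIT3 (r = 0.85), IFIT2 and IFIT3 (0.83), RSAD2 and CMPK2 (0.71) and OAS1 and OAS2 (0.70). DTX3L and PARP14, with 1 gene between them, had an r of 0.66. Without low feed efficiency pig 4 these values were 0.87 for the MX pair, 0.75, 0.74, 0.55, 0.65 and 0.57. The RSAD2, OAS and DTX3L pairs lay above the median of all pairs of the list, 0.63 with all pigs and 0.49 without that one. They did so by less than the MX and IFIT pairs. Against a gene's own median r with the other genes, the neighbour was closer for OAS1 (0.36), DTX3L (0.48) and PARP14 (0.46). For OAS1 these values are those of its representative probe set, and those of its other probe sets are not given. For OAS2 (0.65) it was slightly closer, for RSAD2 (0.71) about as close and for CMPK2 (0.79) less close.

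Further probe sets gave a check on the single genes. Of the 36 genes, 22 had more than 1 probe set, and 31 of the 35 further probe sets passed the filter. Their median r with the representative was 0.82 over the 12 pigs, and 20 had an r over 0.7. The sign of the feed efficiency difference was the same in 24 and that of the sex difference in 28. For OAS1, IFI35 and DDX60 the choice of probe set decided the pattern. Of OAS1, the brightest, SNOWBALL_024354_s_st, had an r of 0.40 with the other genes and a sex difference of 0.03. SNOWBALL_036751_st had 0.16 and 0.08. The dimmer SNOWBALL_016581_st had an r of 0.81 with the other genes and a sex difference of -0.89. The second probe set of IFI35, SNOWBALL_022061_s_st, had an r of only 0.22 with the representative and of 0.64 with the other genes, against 0.47 for the representative. Its sex difference was -0.59 and its feed efficiency difference -0.10, against -0.01 and 0.04. The second probe set of DDX60, SNOWBALL_024109_s_st, had an r of 0.11 with the other genes, against 0.60 for the representative. Its feed efficiency difference was 0.19, against -0.22. The further probe sets of BST2 stood at -0.12, 0.03 and 0.12 for feed efficiency, against -0.25 for the representative. PARP14 had a probe set, SNOWBALL_030568_st, that ran against the others, with an r of -0.62 and a feed efficiency difference of 0.37. ZBP1 was closer to the other genes through SNOWBALL_000524_st, at 0.85, than through its representative, at 0.63. In a limma fit with no filter, SNOWBALL_000524_st differed by -0.47 between the feed efficiency groups (limma unadjusted p 0.0361), against -0.17 for the representative. SNOWBALL_024608_st of IFIT5 differed by -0.53 (limma unadjusted p 0.0328), against -0.18 for the representative and 0.25 for SNOWBALL_024609_s_st. DTX3L was thus the only gene under 0.05 by the representative probe sets, but not by all probe sets.

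Genes outside the list that resembled its mean most were, by r over the 12 pigs, PARP12 (0.96) and ZNFX1 (0.95), followed by KHNYN (0.90), XYLT2 (0.89), TRANK1 (0.89), OPTN (0.89), LGALS3BP (0.89), IQSEC2 (0.87), OS9 (0.87) and ABI2 (0.86). With low feed efficiency pig 4 left out the values ran from 0.92 for PARP12 to 0.74 for ABI2. PARP12, an antiviral ADP-ribosyl transferase, differed by -0.25 ± 0.19 between high and low feed efficiency, and ZNFX1, a sensor of double-stranded RNA at mitochondria, by -0.36 ± 0.23. LGALS3BP, a secreted glycoprotein, differed by -0.17 ± 0.29. These genes were picked by their r with the mean of the listed genes over the same pigs. Differences of like sign and size are therefore no separate result, and none was called.

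The steps upstream of the response showed no call in either comparison. Of the interferon ligand genes, 4 could be tested, and 0 had an estimate below 0 in high feed efficiency. The interferon lambda genes IL29 and IL28B stood at means of 3.83 and 5.17 and differed by 0.09 ± 0.10 and 0.09 ± 0.12. IFNE, an epithelial type I interferon, lay near the filter at a mean of 2.85 and differed by 0.06 ± 0.25. IFNK lay below the filter, and the interferon alpha and beta symbols searched matched no probe set.

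Receptor and kinase genes were lower in high feed efficiency in 6 of 7, against 49.4% of all probe sets, with a median of -0.20. IFNAR1, a chain of the type I receptor, differed by -0.29 ± 0.11 (limma unadjusted p 0.0229, adjusted p 0.999). IFNGR1 of the interferon gamma receptor stood at -0.30 ± 0.16, and IFNGR2, at a mean of 3.25 near background, at 1.15 ± 0.51. Genes that induce interferon (adaptors, kinases and factors) were lower in 6 of 16, with a median of 0.04, among them the adaptors TICAM1 at -0.40 ± 0.20 and MAVS at 0.19 ± 0.13. TANK, which binds the kinases of that step, stood at 0.20 ± 0.15. Negative regulators were lower in 7 of 12, with a median of -0.01. In that list IRF2BP2 stood at -0.21 ± 0.15, the phosphatase PTPN2 at 0.27 ± 0.20 and PTPN11 at 0.18 ± 0.15.

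Other interferon-stimulated genes leaned as the listed ones did, lower in 17 of 23 with a median of -0.10, against 49.4% of all probe sets. Their mean had an r of 0.95 with the mean of the response genes over the same pigs, so this is no separate observation. The death ligand TNFSF10 (TRAIL) differed by -0.60 ± 0.15 and PNPT1, which processes mitochondrial RNA, by -0.42 ± 0.19. Genes of the interferon gamma response and MHC class I were lower in 18 of 21, with a median of -0.26. Their mean had an r of 0.76 with that of the response genes. The guanylate-binding proteins GBP1 and GBP2 stood at -0.44 ± 0.22 and -0.63 ± 0.32, and B2M, the light chain of MHC class I, at -0.46 ± 0.26. None of these genes passed the threshold.

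Markers of several cell types moved with the same pigs, and their part in the result was not tested. Low feed efficiency pig 4, highest in the response genes, had the lowest mean of the 9 B cell and germinal centre markers, 5.21, where the other 11 pigs ran from 6.79 to 9.05. It also had the lowest mean of the 8 plasmacytoid dendritic cell markers, which share genes with B cells, at 6.52 against 6.72 to 7.65. The 9 T cell markers were lowest in low feed efficiency pig 2 and high feed efficiency pig 2, at 7.74 and 7.94, the pigs lowest in the response genes. The other 10 pigs lay between 8.26 and 8.71. The 15 ileal enterocyte markers were lowest in high feed efficiency pig 1, at 8.02 against 9.44 to 10.69.

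Between the feed efficiency groups these marker means overlapped. B cell markers ran from 6.79 to 9.05 in high and from 5.21 to 8.99 in low feed efficiency, T cell markers from 7.94 to 8.71 and from 7.74 to 8.65, and enterocyte markers from 8.02 to 10.69 and from 9.74 to 10.54. Macrophage and dendritic cell markers ran from 5.23 to 6.01 and from 5.18 to 6.22. By gene, several lists had the same sign as the response genes, where 49.4% of all probe sets lay below 0. Estimates were below 0 in high feed efficiency for 13 of 15 enterocyte markers (median -0.45), 8 of 8 goblet and Paneth cell markers (-0.32) and 8 of 8 macrophage and dendritic cell markers (-0.17). The T cell list had 5 of 9 below 0 (-0.04), and the B cell list 0 of 9 (0.35). Of these genes the B cell markers PAX5 and BCL6 differed by 0.66 ± 0.84 and 0.35 ± 0.35, and the macrophage marker MRC1 by -0.57 ± 0.19. The T cell markers CD3E and CD3D differed by -0.20 ± 0.20 and -0.15 ± 0.18, and CD4 by 0.12 ± 0.16. The enterocyte genes APOA4, CDH17 and ANPEP stood at -0.98 ± 0.37, -0.59 ± 0.34 and -0.49 ± 0.32. High feed efficiency pig 1, the array least like the rest, had the lowest mean of the enterocyte list, 8.02. It was also lowest in the goblet and Paneth list, at 8.53. The differences of both lists include this pig, and those without it are not given. Between the sexes, plasma cell markers spanned 6.43 to 7.39 in males and 7.34 to 7.50 in females, and macrophage and dendritic cell markers 5.18 to 6.03 and 5.85 to 6.22, so that females were at the upper end of each, as for the response genes. Goblet and Paneth cell markers spanned 8.53 to 10.07 in males and 9.86 to 10.21 in females. They were lower in males in 7 of 8 genes, with a median of -0.67, and 6 had an unadjusted limma p under 0.05. Of all probe sets, 51% had an estimate below 0 and 9.17% were lower in males at that p. Plasma cell markers were lower in males in 7 of 8 (median -0.41, 4 under 0.05) and T cell markers in 9 of 9 (median -0.28). Enterocyte markers were lower in 12 of 15 (median -0.41) and macrophage and dendritic cell markers in 6 of 8 (median -0.28). The markers of a list share the same pigs, so their counts are not separate observations. No marker was called after adjustment, and the part of these cell types in the sex difference was not tested.

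**Figure D5:**
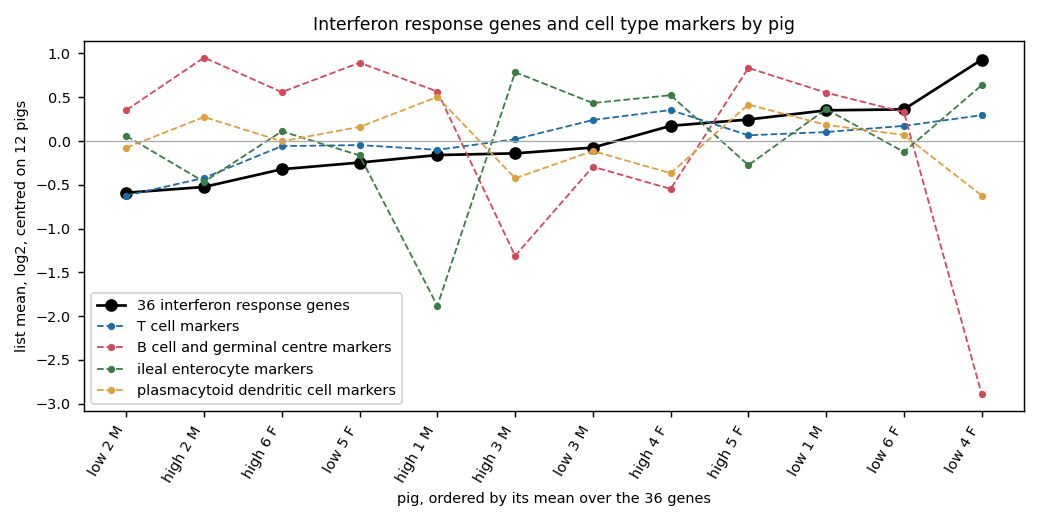
Mean of the 36 response genes (black) and of 4 lists of cell type markers (dashed) in each pig, on the log2 scale and centred on the 12 pigs, with the pigs ordered by the black line. The B cell line drops at low feed efficiency pig 4 on the right, and the T cell line is lowest at the 2 pigs on the left.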

How the data were processed

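The deposited table holds 1 value per probe set and array for 47845 probe sets on 12 arrays, on a log2 scale as read from the values, which run from 0.30 to 14.24. Per the labels' protocols, total RNA was DNase-treated, column-purified, converted with a whole-transcript expression kit and labelled with biotin. The submitters' processing notes name GCOS 1.1.1. The background correction, probe summary and normalization that the authors used are not stated in the labels or files, so their effect is unknown, and no normalization was added. Array signal compresses large differences, and levels are not compared between probe sets of different genes. No scan date or slide was given, so no such batch was tested. The number of arrays limits the precision.

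After leaving out 123 control probe sets and the 30% with the lowest mean, 33405 remained. Gene symbols came from the platform annotation, which gives 1 symbol to 26426 probe sets, several to 0 and none to 21419. The models were limma 3.58.1 fits (R 4.3.3, lmFit and eBayes) per probe set on feed efficiency and sex, with Benjamini-Hochberg adjustment over all probe sets kept and a threshold of 0.05. The interaction of feed efficiency and sex was taken from the means of the 4 groups, and the slope on MX1 from the first model with MX1 as a further term. Correlations with MX1 were tested by 100000 two-sided permutations. The scripts were tested on simulated data. The pigs are separate animals, so replicates are biological.

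The response genes, the other lists and the naming rule were chosen with earlier results of these data known. By that rule each group's lowest, median and highest value is given for MX1, ISG15, IFIT1, IFIT3, OAS1, RSAD2, IRF7, IRF9, STAT2, DDX58, IFIH1, USP18, DTX3L, EIF2AK2 and BST2, as far as measured, and for the 8 genes of smallest unadjusted p for feed efficiency. Of the other lists up to 3 genes of smallest p are named, and of genes outside the list the 10 closest to its mean. Sex values of XAF1, IFI6 and OASL were chosen after they were seen. Further lists covered goblet and Paneth cells, smooth muscle and endothelium. High feed efficiency pig 1 had the lowest mean of the goblet and Paneth list, 8.53. Goblet and Paneth genes were lower in high feed efficiency in 8 of 8 (median -0.32), plasma cell genes in 6 of 8 (-0.22), smooth muscle genes in 2 of 7 (0.07) and endothelial genes in 5 of 8 (-0.10), none of them called. Alternatives were other filters, normalizations, variance models, model terms and subsets of pigs, and each pig left out in turn.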

Additional observations from a re-analysis of the deposited data

Results flagged for a closer look

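Among 72 groups of 6 values, those of the 36 response genes in each feed efficiency group, 2 held a lowest value far from the rest by Dixon's criterion. Chance alone marks about 1 in 20 groups. IFI35 in high feed efficiency pig 2 stood at 6.34, and the nearest of the other 5 high pigs at 6.92. TRIM21 in low feed efficiency pig 2 stood at 5.45, and the nearest of the other 5 low pigs at 6.31. Both pigs were the lowest of all 12 in the mean over the response genes.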

How the results depend on the processing

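No paired analysis was possible because the replicate numbers only name separate pigs. With limma, no response gene was called for feed efficiency, sex or their interaction under any alternative run. MX2 was called for its slope on MX1 (limma adjusted p = 0.0488) without low feed efficiency pig 6, and no response gene was in the other MX1 fits. Over 1728 values of single genes under the alternatives, 98 had the other sign, all of them uncalled in the first place. For feed efficiency, females alone gave 1 called probe set where all pigs gave 0, and leaving out single pigs gave 0 each time. For sex, the 11 called became 7 with no filter or with a trended and robust variance, 4 with the lowest 50% left out or in pigs 301 to 310 alone, and 6 with the identifier range as a term. Leaving out single pigs gave 5 to 417, the highest without low feed efficiency pig 1. The interaction gave 0 to 1 (1 without high feed efficiency pig 3), and the slope on MX1 gave 0 to 3, with 0 without low feed efficiency pig 4 or high feed efficiency pig 5.

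The genes lower in high feed efficiency at an unadjusted p under 0.05, 1 of 36, were 2 with array weights, 0 in males and 0 in females, and 0 to 4 without single pigs (0 without high feed efficiency pig 2, low feed efficiency pig 3 or low feed efficiency pig 4, and 4 without low feed efficiency pig 5). Genes with an estimate below 0 numbered 27 to 36 without single pigs, and the median was -0.35 to -0.10. For sex, the 14 of 36 became 8 to 17 without single pigs (8 without low feed efficiency pig 2 or pig 4, 9 without high feed efficiency pig 5), those below 0 numbered 24 to 33 and their median was -0.47 to -0.21. The range term gave 18, with 35 below 0 and a median of -0.71, and pigs 301 to 310 alone gave 14, 35 and -0.71. These settings share the same estimates, which rest on 2 females, and are not separate checks. The 20 genes that followed MX1 became 13 to 26 without single pigs (13 without low feed efficiency pig 4). The median pairwise r of 0.63 was 0.57 by Spearman's rho and 0.49 to 0.69 without single pigs. High feed efficiency pig 1 and low feed efficiency pig 4 were left out together after the data were seen. This gave 6 called probe sets for sex and 0 for MX1, 0 genes at an unadjusted p under 0.05 for feed efficiency, 7 for sex and 13 for MX1, and a median pairwise r of 0.53. The cause of these shifts was not tested.

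The following differences between feed efficiency groups changed sign. Without both pigs, ISG20 stood at -0.057, RTP4 at 0.00095, OAS1 at 0.14, OAS2 at 0.21, DHX58 at 0.048, DDX60 at 0.021, USP18 at 0.0033 and IRF9 at 0.0066. In males alone, RTP4 stood at 0.082, EPSTI1 at 0.23, OAS2 at 0.51, DHX58 at 0.048, USP18 at 0.011 and IFI35 at -0.072. Females alone gave -0.043 for ISG20 and -0.036 for TRIM21, and array weights -0.011 for IFI35 and -0.037 for TRIM21. In pigs 301 to 310, OAS2 stood at 0.13 and IFI35 at -0.093, and quantile normalization gave 0.056 for OAS2. Leaving out single pigs gave -0.30 to 0.037 for MX1, -0.053 to 0.13 for ISG20, -0.31 to 0.15 for IFI6, -0.31 to 0.024 for XAF1, -0.35 to 0.023 for RTP4 and -0.27 to 0.028 for EPSTI1. It gave -0.33 to 0.19 for OAS2, -0.25 to 0.048 for DHX58, -0.22 to 0.021 for USP18, -0.028 to 0.18 for IFI35 and -0.11 to 0.12 for TRIM21.

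Among sex differences, the range term and pigs 301 to 310 alone both gave -0.74 for OAS1, -0.00092 for EIF2AK2, -0.46 for DDX60, -0.41 for HERC6 and -0.21 for PARP14. Median centring gave -0.0097 for OAS1, -0.024 for DDX60 and -0.014 for HERC6. Array weights gave -0.013 for EIF2AK2 and -2.2e-05 for DDX60, and quantile normalization 0.023 for IFI35. Without both pigs, IFIT1 stood at 0.15, IFIT2 at 0.053, RTP4 at 0.11 and DTX3L at 0.0046. Leaving out single pigs gave -0.38 to 0.11 for IFIT1, -0.42 to 0.10 for IFIT2, -0.48 to 0.0089 for RSAD2, -0.25 to 0.14 for RTP4 and -0.26 to 0.34 for OAS1. It gave -0.14 to 0.071 for IFIH1, -0.18 to 0.18 for DDX60, -0.11 to 0.16 for HERC6, -0.071 to 0.14 for IFI35 and -0.27 to 0.022 for DTX3L.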
